A study of Mus musculus with 8 samples.

Results

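Pwwp2a/b DKO clone A1 was compared with its wild-type parent by the positions at which capped nuclear RNA began. E14 is a mouse embryonic stem cell line. Clone A1 is an E14 line in which both Pwwp2a and Pwwp2b were knocked out, and DKO C7 is another clone of that genotype, used here as background only. All lines were kept undifferentiated on gelatine in medium with serum and LIF, and none received a drug. A1 is a single clone, so a difference from E14 could belong to the clone or to the genotype, and these cannot be told apart in the A1 track.

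The deposited data are tag clusters, which are runs of nearby transcription start sites on 1 strand. The 3 E14 libraries were merged into 1 track of 32857 clusters and the 2 A1 libraries into 1 track of 33005 clusters, out of 98732 clusters in the 3 tracks of the series and 5 of its 8 libraries. An A1 cluster that shared at least 1 bp with an E14 cluster on the same strand was matched to it. A cluster of A1 with no E14 partner is called gained below, and a cluster of E14 with no A1 partner is called lost. Since each line is 1 merged track, there is no replicate spread and no test was run. Percentages carry 95% Wilson intervals, which cover counting error only. The merging of 2 libraries in A1 against 3 in E14 cannot be told apart from the difference between the lines, and the read depth of the tracks was not analysed here.

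PWWP2A and PWWP2B are chromatin proteins with a PWWP domain, a fold that reads histone H3 methylated at lysine 36. That mark is laid down by SETD2 behind elongating RNA polymerase II and covers the bodies of active genes. PWWP2A and PWWP2B bind HDAC1, HDAC2 and MTA proteins, which are also part of the NuRD deacetylase complex, and the study asked whether their loss lets RNA polymerase II begin transcription inside genes. CAGE-seq captures the cap at the 5′ end of an RNA and so marks the base at which the RNA began. Most promoters of mammalian genes use several such bases, and the base used most in a cluster is its dominant TSS. The stretch from the 0.1 to the 0.9 quantile of the signal along the cluster is its interquantile region.

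Sequences are printed in several sets, since the results turn on the bases at which RNA began. All are mm10, read 5′ to 3′ on the strand of the cluster. The first set holds clusters that were gained in A1 inside coding exons or a 3′ UTR, as examples from the genes and gene lists named further on. The capital is the dominant TSS of A1, with 10 bases on each side, taken from GENCODE transcripts.

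Tet1, chr10:62879372, minus strand: actggaagggAcacattgtga

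Supt16, chr14:52178103, minus strand: caaagaagggAaaaagccaga

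Smarca5, chr8:80705517, minus strand: agaagtggggTcgtgatgata

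Kat6a, chr8:22938340, plus strand: gccgaagaggAagaggataca

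Gatad2a, chr8:69909418, minus strand: ttttattgggTttttttttgt

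Pcbp2, chr15:102498517, plus strand: tggcatggggAgcagctagaa

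Eif3e, chr15:43262627, minus strand: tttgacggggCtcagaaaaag

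Rfc1, chr5:65311147, minus strand: agtcagaggaGacagtacagg

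In 6 of these 8 windows the 3 bases before the capital are GGG, and the exceptions are Kat6a and Rfc1. The second set holds promoter clusters whose dominant TSS differed between the lines, from genes of the PWWP2 and NuRD list. Both dominant TSSs are in capitals, and the coordinates are those of the printed stretch.

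Hdac1, chr4:129542673-129542696, minus strand, E14 base first: cggacGccgtaaggagccGcgggc

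Gatad2b, chr3:90293354-90293380, plus strand, E14 base first: gcctcCtttttcgacgccttcAcagcc

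Chd4, chr6:125114053-125114081, plus strand, E14 base first: acaggCtcaatgtctaaacaggaGcttga

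Chd4, chr6:125120201-125120214, plus strand, A1 base first: ccaggAggAagagg

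Rbbp4, chr4:129335391-129335409, minus strand, E14 base first: cccgcGctttctcAttggt

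The Rbbp4 stretch is from the RefSeq promoter table on GRCm38.p6, and the others are from GENCODE transcripts. The third set holds starts of genes that had a promoter cluster in A1 and none in E14, with the A1 dominant TSS in capitals as in the first set.

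Col3a1, chr1:45311631, plus strand: ggaagcgagcGgctgagtttt

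Igfbp5, chr1:72874884, minus strand: cagagcccgcAgtctctttgg

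Dlk1, chr12:109453491, plus strand: ccgcagcggcAgctcctcggc

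Mmp9, chr2:164948238, plus strand: agcgttagccAgaagctgcgg

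Cldn5, chr16:18776847, plus strand: ttcagaacccAgttggtgtag

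None of these 5 windows has GGG before the capital, and in Igfbp5, Dlk1, Mmp9 and Cldn5 the start is an A after a C. They are examples and do not stand for the whole set. Of all 93 promoter clusters gained in A1, 73 had sequence, which was too few for a share of bases to be given for the set.

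The knocked-out genes and the cell type were checked first. Pwwp2a had the same promoter cluster in E14, A1 and C7, from 43681990 to 43682032 on the plus strand of chromosome 11, with its dominant TSS at 43682027 and an interquantile region of 36 bp in both E14 and A1. It also had the same 2-bp intronic cluster in every line, from 43688117 to 43688118. Pwwp2b had no cluster in any track. A cluster at a promoter shows that RNA began there and says nothing of the rest of the gene, so these clusters do not check the deletion, whose position is not given in the sources used here. All 12 embryonic stem cell markers had a promoter cluster in both lines, with 30 such clusters in each, among them Pou5f1, Nanog, Sox2, Zfp42 and Esrrb, transcription factors that hold these cells undifferentiated. None of the 4 mesoderm markers had one. Of the other marker lists, 1 of 5 endoderm markers (Sox17), 2 of 4 ectoderm markers (Sox1 and Nes) and 1 of 4 trophoblast markers (Krt7) had one in both lines. Among 6 fibroblast markers, Col1a1, Col1a2 and Thy1 had a promoter cluster in both lines, Postn and Lum had none, and Col3a1 had one in A1 and C7 and none in E14.

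A1 and E14 shared almost every cluster. Of the A1 clusters, 365 were gained, which is 1.11% of 33005 (interval 0.999 to 1.22%), and of the E14 clusters 233 were lost, which is 0.709% of 32857 (0.624 to 0.806%). The outlines of the 32640 matched clusters were the same to the base in 32285 cases (98.9%). Of the other 355, 288 were shorter in A1 and 67 were longer. In C7 the outline was that of E14 in 99.3% of matched clusters. Whether cluster bounds were set over the lines together could not be settled from the deposited tracks, so shared outlines may not be separate calls. The gained clusters were narrow. A single base made up 293 of them (80.3%), the widest was 21 bp, and the median distance to the nearest E14 cluster on the strand was 5437 bp. Lost clusters were less often of 1 bp (104, 44.6%), reached 31 bp, and lay a median of 2184 bp from the nearest A1 cluster. In all of A1, 520 clusters (1.58%) were 1 bp wide, against 329 (1.00%) in E14 and 389 (1.18%) in C7.

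The balance of gained and lost clusters differed with where they lay. Clusters were assigned to promoters within 500 bp of any annotated transcript start on the strand, and otherwise to exons, introns or intergenic sequence in GENCODE M21. At promoters A1 gained 0.468% (0.382 to 0.573%) of its clusters and lost 0.518% (0.428 to 0.628%) of those of E14. In exons it gained 1.74% (1.39 to 2.18%) and lost 0.681% (0.474 to 0.976%). In introns these values were 1.53% (1.16 to 2.03%) and 0.854% (0.583 to 1.25%), and in intergenic sequence 2.61% (2.22 to 3.05%) and 1.32% (1.05 to 1.65%). Within exons, 56 clusters were gained in coding sequence and 21 lost, and 14 were gained in 3′ UTRs and 7 lost. Of the 150 gained intergenic clusters, 49 lay inside a gene annotated on the opposite strand, as did 29 of the 75 lost.

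**Figure D1:**
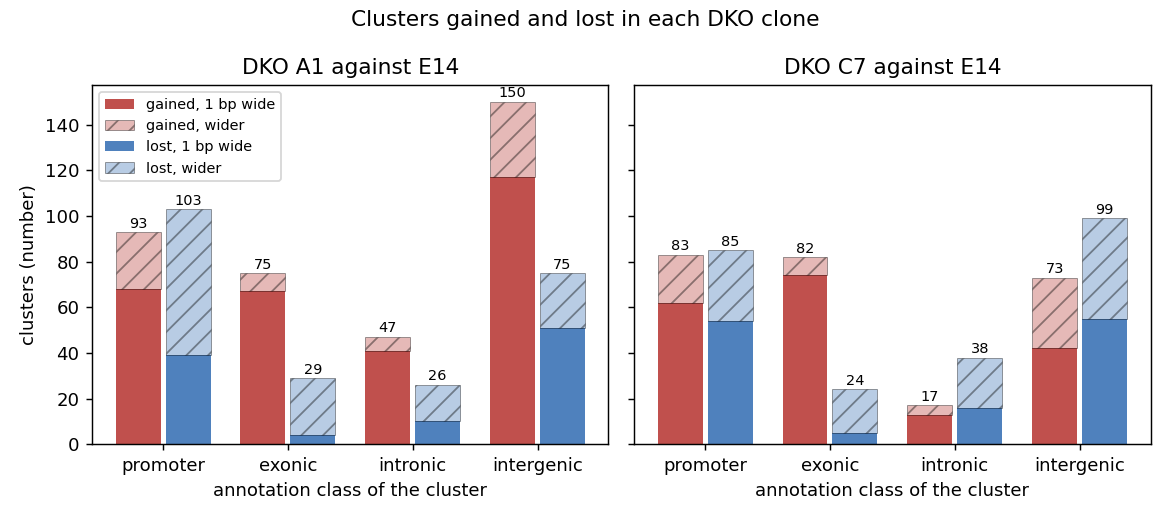
Number of clusters gained (red) and lost (blue) in A1 and, as background, in C7 against the same E14 track, by annotation class, with 1-bp clusters in solid colour and wider ones hatched. In A1, 67 of the 75 gained exonic clusters are 1 bp wide, against 4 of the 29 lost.

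The excess of gained clusters inside genes was made up of single-base clusters. With clusters of 1 bp left out, A1 gained 8 exonic clusters and lost 25, gained 6 intronic clusters and lost 16, and gained 25 promoter clusters and lost 64. In all classes together it then gained 72 and lost 129. Intergenic clusters were the one class in which more were gained than lost on either count, with 33 gained and 24 lost once single bases were left out. C7 was compared with the same E14 track, so its counts share that track with those of A1. It gained 82 exonic clusters and lost 24, gained 17 intronic and lost 38, and gained 73 intergenic and lost 99. The intronic and intergenic balance was therefore positive in A1, at 21 and 75, and negative in C7, at -21 and -26.

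Exonic clusters gained in A1 had a later median position and longer host genes than all exonic clusters of E14. The 74 in protein-coding genes fell in 69 genes, at a median of 82.9% of the way along the gene (quartiles 56.3 and 92.8%), where all E14 exonic clusters had a median of 73.5% (46.2 and 92.2%) and the lost ones 63.5%. The median length of the host genes was 58.5 kb for gained, 30.035 kb for lost and 36.9 kb for all E14 exonic clusters. A last exon held 32 of the gained clusters (43.2%, 32.6 to 54.6%) and 49.1% of all E14 exonic clusters. A promoter cluster was present in E14 for the host gene of 73 of the 74. The same held for 28 of the 29 lost and for 3871 of the 4054 exonic E14 clusters in coding genes (95.5%). Of the 115 exonic and intronic clusters gained in coding genes, 26 lay in genes where E14 had no cluster inside the gene at all, and of the 50 lost, 17 left a gene with none in A1. The gained intronic clusters were spread as all intronic clusters were, at a median of 42.0% of the gene against 42.6%.

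The bases before these starts set exonic clusters apart from promoter clusters in both lines. GGG was searched for directly before the dominant TSS on the strand of the cluster. It was found at 39.8% (38.3 to 41.3%) of the 4131 exonic E14 clusters with sequence and at 38.9% of those of A1. Of all positions in the transcripts that hold exonic E14 clusters, 1.49% have GGG before them. Promoter clusters with sequence had GGG before the dominant TSS in 6.39% of cases in E14 and 6.37% in A1. Among the gained exonic clusters it was at 38 of 71 (53.5%, 42.0 to 64.6%), and among the lost at 17 of 27 (63.0%, 44.2 to 78.5%). A pyrimidine before a purine, the usual pair at a promoter's start, was at 74.5% of promoter clusters in E14 and 73.5% in A1, and at 10.7% and 10.5% of exonic clusters. By position alone this pair is at 21.6% of bases in RefSeq promoter windows. Intronic and intergenic clusters had sequence in under 80% of cases and are not described. The gained and the lost promoter clusters also had it in under 80%, at 78.5% and 76.7%, so no share of bases is given for them.

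Few genes changed by more than 1 cluster. Of 2914 genes with an exonic or intronic cluster in either line, 2746 had as many in A1 as in E14, 114 had more and 54 fewer. The net gain was 3 in 1 gene and 2 in 8 genes. Tet1, which oxidises methylated cytosine, had 63 such clusters in E14, against 66 in A1 and 64 in C7. One Tet1 cluster of E14, a 52-bp run in an exon from 62838961 to 62839012 on chromosome 10, was matched in A1 by a piece of 3 bp and a piece of 27 bp. Smarca5, the ATPase of the ISWI remodellers, had 2 in each of E14 and C7 and 4 in A1. The pair added in A1 were single bases 39 bp apart in coding sequence, at 80705478 and 80705517 of chromosome 8.

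At Nsd3 the gained clusters lay both at the promoter and in introns. Nsd3 encodes an enzyme that methylates lysine 36 of histone H3 and lies on the plus strand of chromosome 8 from 25601601 to 25719667. E14 and C7 each had 1 cluster there, an 11-bp promoter cluster from 25602244 to 25602254 with its dominant TSS at 25602249. In A1 the dominant TSS of that cluster was at 25602246 and its interquantile region was 6 bp in place of 11. A1 also had 3 clusters that were in neither of the other lines, each 1 bp wide, at 25602715, 25602997 and 25664768. The first lay 396 bp from an annotated start and so counted as a promoter, and the others lay in introns.

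Rfc1, the large subunit of the clamp loader that sets PCNA on DNA, had 1 cluster in its coding sequence in E14 and 3 in A1. One of those added was the widest exonic cluster gained in A1, 12 bp from 65311136 to 65311147 on chromosome 5, and lay 23167 bp from the nearest E14 cluster. C7 had it too, with its dominant TSS at the other end, 65311136. Cep83, a centriole protein, went from 5 coding clusters in E14 to 7 in A1, with 4 in C7. Myo10, a myosin of filopodia, went from 8 to 10, and C7 also had 10. Ankrd11, a chromatin regulator on chromosome 8, had 40 in E14 against 42 in A1 and 41 in C7. Gm47283 on chromosome Y had 81 and 83. The largest loss was at Fblim1, an adaptor of cell adhesion sites, with 4 in E14 and C7 and 2 in A1.

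Clusters gained or lost inside genes did not exceed 20 bp in width. Besides Rfc1, the widest gained exonic clusters were 11 bp in the 3′ UTR of Irf2bpl, 7 bp in the coding sequence of Tcof1, 5 bp in Smc2, a condensin subunit, 5 bp in Snapc3, and 2 bp in Irs1, which relays insulin signals. The widest lost ones were 18 bp in the 3′ UTR of Enah, 15 bp in that of Rlim, 14 bp each in the coding sequences of Nasp, a histone chaperone, and Pnoc, 12 bp in Cenpf, a kinetochore protein, and 9 bp in Mak16. In introns the widest gained cluster was 20 bp in Asxl1, a Polycomb-related chromatin factor, followed by 6 bp in Mras and in Gm20388, 4 bp in 2010308F09Rik, 3 bp in Tet1 and 2 bp in Wac. The widest lost intronic clusters measured 20 bp in Pcsk1n and in Plxnb2, 19 bp in Fblim1, 17 bp in Tmco4, 10 bp in 4930444M15Rik and 8 bp in 5330434G04Rik. Of intergenic clusters, the widest gained was 21 bp, from 19785226 to 19785246 on the minus strand of chromosome 8, and lay 337569 bp from the nearest E14 cluster. It was absent from C7. The widest lost was 31 bp, from 9608809 to 9608839 on the plus strand of chromosome 3, inside Zfp704 on the opposite strand, and lay 28 bp from an A1 cluster.

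At promoters, clusters were mostly gained and lost at genes that had a promoter cluster in both lines. A promoter cluster was present in both lines for 12169 genes, in A1 alone for 32 genes and in E14 alone for 34. Of the 93 promoter clusters gained, 65 lay at a gene that also had a promoter cluster in E14, and of the 103 lost, 73 lay at a gene that kept one in A1. Genes with several promoter clusters are common. Of 18070 matched promoter clusters of coding genes, 6883 were the only one of their gene. The widest gained were 20 bp at Tlnrd1, 19 bp at Sept4, 18 bp at Bcl7a, a subunit of BAF remodellers, 17 bp at Otud4, 15 bp at Srrm2, a scaffold of the spliceosome, and 14 bp at Dnah1, an axonemal dynein. Sept4 alone of these was absent from C7. The widest lost were 31 bp at Cubn, 28 bp at Rpl8, 27 bp at Kctd2, 21 bp at H2afz, and 20 bp each at Dmtn and at Tnfsf11. The H2afz cluster, from 137864655 to 137864675 on chromosome 3, lay 31 bp from a cluster that A1 kept, and C7 had it.

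Of the 32 genes with a promoter cluster in A1 alone, 28 had no E14 cluster overlapping it, and 21 of those code for proteins. All 21 are named here, and were found from these values and not from a list. Col3a1 and Col8a1 encode collagens, Tnc encodes tenascin-C of the extracellular matrix, Itga11 an integrin that binds collagen, Igfbp5 a binding protein of insulin-like growth factors, and Mmp9 a protease that cuts matrix proteins. Their A1 clusters were 2, 3, 4, 5, 3 and 1 bp wide. Each lay within 82 bp of an annotated start, and the nearest E14 cluster on the strand was between 12615 bp (Mmp9) and 550872 bp (Tnc) away. C7 had a promoter cluster at all of these but Mmp9. Dlk1, an imprinted Notch-like ligand, Cxcl10, a chemokine, and Zscan4b, of a gene family known from rare 2-cell-like cells in these cultures, each had a single-base promoter cluster in A1 and none in C7. The other coding genes were Acnat1, Calhm6, Ccno, Cldn5, Cyp1b1, Dnah1, Fstl3, Gyg, Rab3b, Sept4, Tcim and Vsir. Of the fibroblast markers, 4 of 6 had a promoter cluster in A1 and 3 of 6 in E14, and the part of other cells in these starts was not tested. Of the 34 genes with a promoter cluster in E14 alone, 30 had no A1 cluster overlapping it, and 21 of those code for proteins. They included Thra, a thyroid hormone receptor, Cpeb1, which controls translation from the 3′ UTR, Zap70, a kinase of T cells, and Mbnl3, a splicing regulator. The first 3 had clusters of 1 bp and none in C7, and Mbnl3 had 4 bp and was present in C7. The others were BC051142, C1rl, Cend1, Clmn, Cxcl14, Disp3, Gipr, Kif21b, Klk1, Mblac2, Nxf7, Pcnx2, Rap1gap, Slc25a43, Stc1, Tex2 and Zkscan6.

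Of chromosomes 1 to 19 and X, chromosome 8 had the highest share of gained clusters. Of its 1835 A1 clusters 36 were gained (1.96%, 1.42 to 2.70%), and 7 of its E14 clusters were lost, a balance of 29. Over chromosomes 1 to 19 and X the gained share had a median of 1.07% and ran from 0.637% on chromosome 9, and the next highest after chromosome 8 was 1.61% on chromosome 4, inside the interval of chromosome 8. C7 gained 14 clusters on chromosome 8 and lost 18. Those gained in A1 were 12 intergenic, 10 exonic, 9 promoter and 5 intronic. The exonic ones were in Ankrd11 and Smarca5 with 2 each, Kat6a, a histone acetyltransferase, Gatad2a, a NuRD subunit, Clcn3, Mak16, Tmem184c and Vps35, and the others included the 3 at Nsd3. More clusters were gained than lost on 15 of the 20 chromosomes, fewer on 3 and as many on 2. Without chromosome 8, A1 gained 329 clusters and lost 226, with 65 exonic gained and 27 lost. The share of matched clusters with a moved dominant TSS was not high on chromosome 8, at 22.1%, within the range of 20.2 to 26.2% over the chromosomes.

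**Figure D2:**
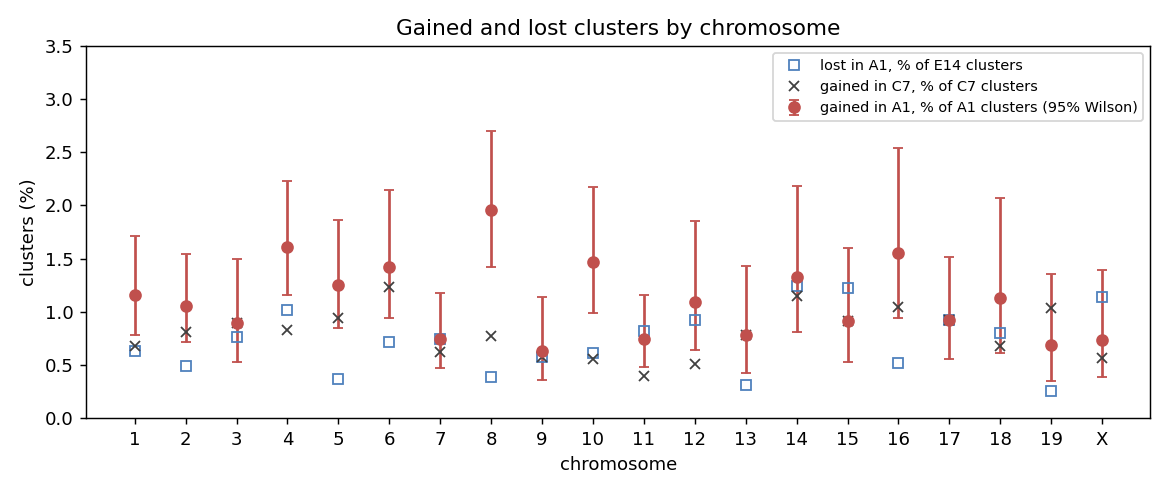
Percentage of clusters gained in A1 (red, with 95% Wilson intervals), lost in A1 (blue squares) and gained in C7 (crosses) on each chromosome. Chromosome 8 has the highest gained share in A1, 1.96%, while C7 gained 0.776% there.

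Matched clusters differed more in the base used most than in their presence. The dominant TSS was at another base in A1 in 7777 of 32640 matched clusters, which is 23.8% (23.4 to 24.3%). In C7 the value was 21.2% of 32615. By class the A1 share was 21.7% at promoters (21.2 to 22.3%), 25.4% in exons (24.1 to 26.7%), 29.5% in introns (27.9 to 31.1%) and 26.9% in intergenic sequence (25.8 to 28.1%), and in C7 it was 19.3, 22.9, 24.4 and 24.6%. There was no common direction, since 3844 lay upstream in A1 and 3933 downstream. At promoters 2113 lay upstream and 2188 downstream, and in exons 542 and 533.

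The size of the displacement differed with the class and with the width of the cluster. At promoters the median was 7 bp (quartiles 3 and 17 bp), and 83 of 19782 matched promoter clusters (0.420%) moved by 50 bp or more. In exons and introns the medians were 2 and 1 bp, and 48.8% and 53.0% of the moves were to the adjacent base. These were often narrow clusters in which the dominant TSS went from one end of the interquantile region to the other, which describes 66.1% of exonic and 71.3% of intronic moves and 37.1% of those at promoters. The E14 dominant TSS still lay inside the A1 interquantile region in 98.5% of moved promoter clusters. At like widths in E14 the median moves lay closer together in the narrower clusters. For clusters of 2 to 3 bp the median was 1 bp at promoters, in exons and in introns. For 11 to 30 bp it was 11, 12 and 11 bp, and for 31 to 60 bp 13, 18 and 16 bp.

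**Figure D3:**
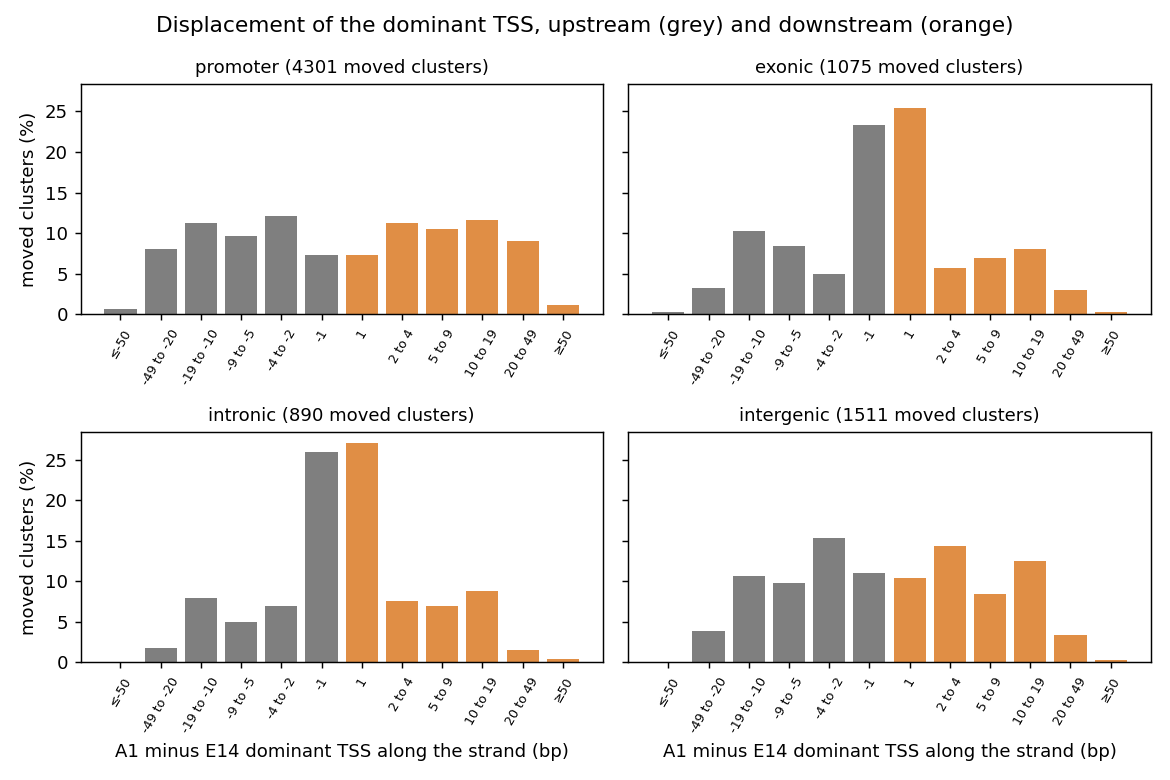
Distance along the strand from the E14 to the A1 dominant TSS, in bp, as a percentage of the moved clusters of each class, with upstream moves in grey and downstream moves in orange. Moves by 1 base are the highest bars in exons, at 23.3% upstream and 25.5% downstream.

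How often the dominant TSS moved also depended on the width of the cluster. Among promoters it moved in 24.6% of clusters of 2 to 3 bp, 28.2% of those of 11 to 30 bp and 14.9% (13.99 to 15.9%) of those over 60 bp. Introns ran from 31.7% at 11 to 30 bp to 10.96% (5.66 to 20.2%) over 60 bp. Exonic clusters are narrower than promoter clusters, with a median interquantile width in E14 of 3 bp against 21 bp. At like widths the exonic and promoter shares were 23.4% and 24.6% for 2 to 3 bp, 28.2% and 24.9% for 4 to 10 bp, and 28.3% and 28.2% for 11 to 30 bp. For 31 to 60 bp they were 27.6% (22.8 to 32.9%) and 20.9% (19.8 to 22.2%), with intervals apart, and over 60 bp 17.5% and 14.9%. Protein-coding genes with 1 matched promoter cluster had it moved in 18.1% of 6883 cases (17.2 to 18.99%), and genes with 5 or more had 24.7% of 2263 clusters moved (22.9 to 26.5%). In all, 3264 of 10905 such genes (29.9%) had at least 1 moved promoter cluster.

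**Figure D4:**
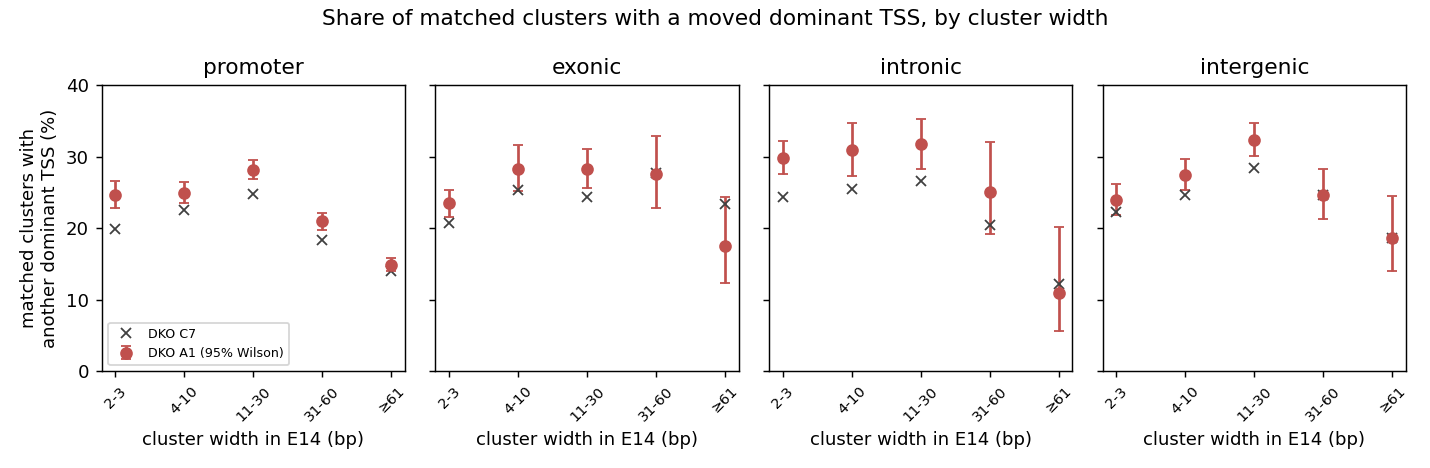
Percentage of matched clusters whose dominant TSS differed from E14, by width of the E14 cluster in bp, for A1 (red, with 95% Wilson intervals) and C7 (crosses). The share is highest at 11 to 30 bp and lowest over 60 bp in promoters, introns and intergenic sequence among clusters over 1 bp. The 225 matched 1-bp clusters are not drawn. None had moved, and a 1-bp cluster with the same outline in both lines has no other base to move to.

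The dominant TSS of A1 was less often at the pyrimidine and purine pair. Of 3658 moved promoter clusters with sequence for both lines, the pair was at the dominant TSS of 2503 (68.4%) in E14 and 2330 (63.7%) in A1. It was at the E14 base alone in 659 and at the A1 base alone in 486. In the 13693 that did not move it was at 76.2%. The E14 base was also at an annotated start slightly more often, in 314 of the 3894 moved promoter clusters of protein-coding genes against 294 in A1, and 1980 lay farther from an annotated start in A1 while 1829 lay nearer. In exons GGG preceded the E14 dominant TSS in 32.3% and the A1 one in 28.5% of 1029 moved clusters, and 42.2% of those that did not move. Single promoters went either way. In the printed Hdac1 stretch both bases are a G after a C, which is the pair in both lines, and in that of Gatad2b the E14 base is a C after a C and the A1 base an A after a C, so the pair is at the A1 base alone.

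Some promoters moved far, by up to 267 bp over all genes, and those named here are of coding genes. At Pdxdc1, in a cluster of 162 bp on the minus strand of chromosome 16, the dominant TSS was at 13903106 in E14 and C7 and at 13902975 in A1, 131 bp downstream and on an annotated start. The interquantile region of A1 there was 133 bp, as in E14, and did not hold the new dominant TSS. Klhdc3 and Erp29, a chaperone of the endoplasmic reticulum, moved 113 and 106 bp downstream, and C7 had the A1 base at both. Eif2s2, the beta subunit of the factor that brings initiator tRNA to the ribosome, used 154892782 in E14, on an annotated start, and 154892694 in A1 and C7, 88 bp downstream, in an interquantile region of 102 bp in each line. An annotated start codon lies between these bases. Krba1 (99 bp), Mipol1 (95 bp), Wdr6 (87 bp) and Slc17a9 (86 bp) completed the 8 farthest downstream. C7 had the A1 base at Mipol1 and Wdr6, the E14 base at Krba1 and a base of its own at Slc17a9.

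Among promoters of coding genes the farthest upstream move was 91 bp, against 131 bp for the farthest downstream move. Gatad2a, a NuRD subunit, used 69974327 in E14 and C7 and 69974401 in A1, 74 bp upstream, with an interquantile region of 102 and 103 bp in E14 and A1. Tfg moved by 73 bp and Btbd9 by 71 bp. Fmr1, the gene of fragile X syndrome, Ppp2r1a, the scaffold of protein phosphatase 2A, and Zfp622 each moved by 70 bp. C7 had the A1 base at Btbd9 and the E14 base at Tfg, Fmr1, Ppp2r1a and Zfp622. The farthest by rule, Tmem63b (91 bp) and Ndufa6 (81 bp), were clusters that A1 held in pieces. At Tmem63b the larger A1 piece, 110 bp, kept the E14 dominant TSS at 45686162, and the smaller, 36 bp, had its own at 45686253. At Ndufa6 the larger piece, 108 bp, kept 82354237. Altogether 21 E14 clusters were overlapped by 42 A1 clusters in this way, 16 of them at promoters, and in 15 of the 21 a piece kept the E14 dominant TSS.

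An annotated start codon lay between the dominant TSSs of the lines at 32 of the 3894 moved promoter clusters of coding genes (0.822%). In 18 the A1 base was downstream of the codon and in 14 upstream. Besides Eif2s2 and Krba1 these included Luc7l3, a splicing factor, where A1 and C7 used a base 53 bp upstream of that of E14, Dnajc8 (43 bp upstream), Rbm39 (42 bp upstream), Akap12 (29 bp downstream) and Rps12 of the small ribosomal subunit (29 bp upstream). A codon of another annotated transcript of the gene can lie there, so this does not give the protein made.

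Inside genes, the farthest move was 254 bp upstream in Gm42418 on chromosome 17, with C7 at the A1 base. This locus and its neighbours AY036118 and Gm26917 hold sequence of ribosomal RNA, which is repeated in the genome, so the origin of their reads is uncertain. Of coding genes, Ildr1 moved by 85 bp and Ahnak2 by 70 bp downstream in introns. Patl2 moved by 68 bp and Hnrnpu by 56 bp downstream in exons, and Smc1a, of cohesin, by 58 bp upstream in an exon of chromosome X. Bicral, at 82 bp, was held in pieces, of which the larger kept the E14 base at 46801890.

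Interquantile regions were more often wider in A1 than narrower. By at least 10 bp, 1163 matched clusters (3.56%, 3.37 to 3.77%) were wider in A1 and 650 (1.99%, 1.85 to 2.15%) narrower, while 22562 (69.1%) had the same width to the base. At promoters 833 were wider and 470 narrower, and in C7 790 and 432. The exonic counts were 108 and 64, the intronic 68 and 36, and the intergenic 154 and 80. The change was small on the mean, with promoter interquantile regions of 24.8 bp in E14 and 25.4 bp in A1 and medians of 21 bp in both. Of the wider promoter regions, the 3′ edge moved most in 471 and the 5′ edge in 359. The interquantile region spanned the whole cluster in 56.5% of A1 clusters, 54.0% of E14 clusters and 55.1% of C7 clusters.

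Most of the largest gains of width were at promoters that kept their dominant TSS. Mt1 and Mt2, the metallothioneins, small proteins that bind zinc and are induced by metals, lie side by side on chromosome 8. The region of Mt1 was 58 bp in E14, 109 bp in A1 and 111 bp in C7, and that of Mt2 was 4, 46 and 38 bp. Tpr, a protein of the nuclear pore basket, went from 113 to 154 bp (C7 134 bp), Akip1 from 180 to 220 bp (208 bp), Fam216a from 19 to 60 bp (51 bp) and Pip4k2b from 55 to 93 bp (87 bp). All of these kept the dominant TSS. Adam9, a membrane protease, went from 50 to 100 bp (C7 79 bp) and moved its dominant TSS 44 bp upstream. Rev1, a polymerase that bypasses DNA damage, went from 30 to 70 bp (59 bp) with a move of 2 bp. Of the largest losses, Ppib, an endoplasmic reticulum isomerase, kept its outline and went from 92 to 49 bp (C7 48 bp). The other 7, at Gclm, Tmem63b, Pdk3, Commd7, Cox7c, Srgn and Kdm3b, were clusters held in pieces in A1. At Gclm, which makes the modifier subunit of the enzyme for glutathione, the larger piece was 151 bp with a region of 108 bp against 114 bp in E14.

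Gene lists were compared with all genes by the same counts. The lists were chosen with earlier results of these data known. At the genes of the PWWP2 and NuRD list, 14 of 39 matched promoter clusters had moved (35.9%, 22.7 to 51.6%), where 21.7% of all had, and in C7 10 of 39 (25.6%). Inside these genes 4 of 27 matched clusters had moved in A1 (14.8%), where 27.1% of all had. The moved share differs with cluster width, and the list was not compared with promoters of like width. The moved promoter clusters lay at 8 of 15 genes, 6 upstream and 8 downstream, with a median of 5.5 bp and a range of 1 to 74 bp. Chd4, the ATPase of NuRD, had 4 of them (2, 3, 18 and 3 bp), Mbd2, which binds methylated DNA, 3, and Rbbp4, a histone chaperone, 2 (6 and 8 bp). Hdac1, a catalytic subunit, used 129542691 in E14 and C7 and 129542678 in A1, 13 bp downstream, and its region went from 19 to 35 bp (C7 18 bp). Mbd3 moved by 1 bp, Mta3 by 3 bp, Gatad2b by 16 bp and Gatad2a by 74 bp. Mta2 kept its base and widened from 80 to 105 bp, as in C7. The list neither gained nor lost a promoter cluster, and it gained 1 in the 3′ UTR of Gatad2a. Chd4 and Mbd2 have several clusters each, so these counts are not independent between clusters of a gene. The moved clusters of Chd4 were spread along the gene, from 125096547 to 125120209 on chromosome 6.

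On the list of lysine 36 methylation, 14 of 48 promoter clusters had moved (29.2%, 18.2 to 43.2%), and in C7 8 of 48 (16.7%). Downstream moves numbered 10. Kdm4a, a demethylase, moved by 54 bp, and C7 had the A1 base. Nsd1 moved by 21 and 40 bp at different clusters and Kdm2b by 26 bp, with C7 at the E14 base in each. Another Kdm2b cluster moved by 10 bp upstream, and C7 had the A1 base there. Nsd2 moved by 17 bp and widened from 46 to 61 bp, and Setd2, the enzyme behind the mark in gene bodies, moved by 4 bp upstream in a 5-bp cluster. Kdm2a moved by 13 bp. Apart from the 3 clusters at Nsd3, the list gained and lost none.

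**Figure D5:**
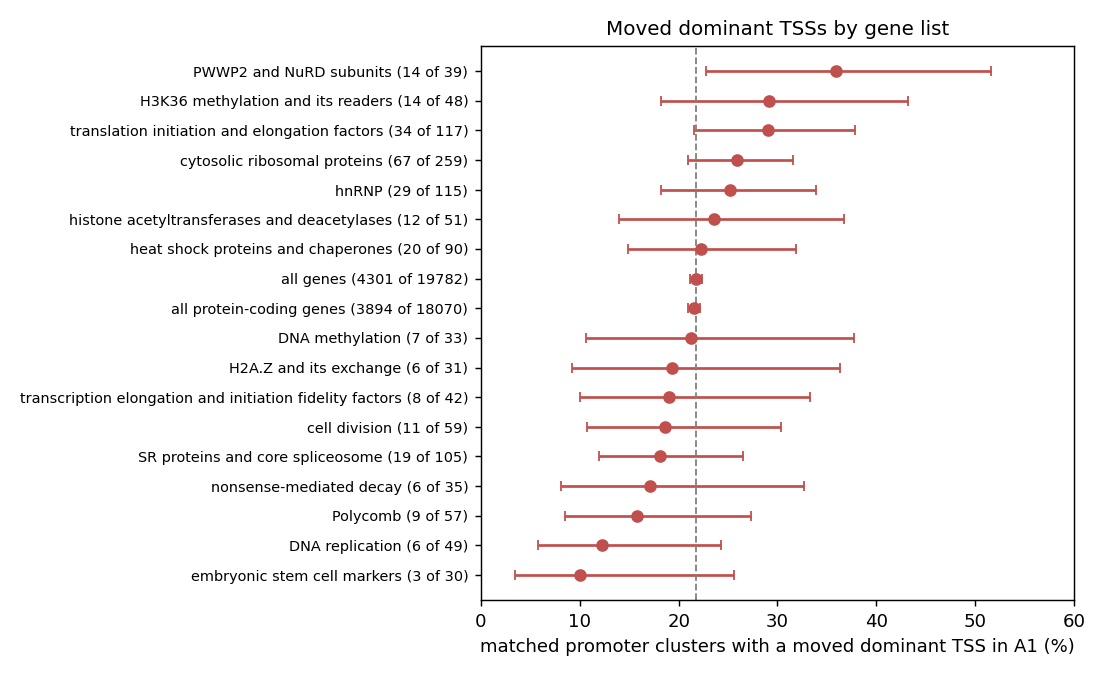
Percentage of matched promoter clusters whose dominant TSS differed between A1 and E14, by gene list, with 95% Wilson intervals, the counts in brackets and the value over all genes as a dashed line. The list values run from 10.0% for embryonic stem cell markers to 35.9% for PWWP2 and NuRD subunits, and most intervals include 21.7%.

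The other chromatin lists lay near the value of all genes. Moved promoter clusters were 8 of 42 (19.05%) for elongation factors, 7 of 33 (21.2%) for DNA methylation, 6 of 31 (19.4%) for H2A.Z and its exchange, 9 of 57 (15.8%) for Polycomb and 12 of 51 (23.5%) for acetyltransferases and deacetylases. Clusters inside these genes were gained in coding sequence at Supt16, a subunit of the FACT histone chaperone, at Ep400, which exchanges H2A.Z, at Kat6a and at Tet1, each 1 bp wide. Tet1 also gained a 3-bp intronic cluster. A 2-bp coding cluster of Sin3b, a corepressor scaffold, was lost. Promoter clusters were lost at Dnmt3a, a DNA methyltransferase (2 bp), and at H2afz (21 bp). Rybp, a Polycomb subunit, gained a 2-bp promoter cluster. Over all genes 122 of 7374 clusters inside genes were gained and 55 of 7305 lost. At promoters 93 of 19875 were gained and 103 of 19872 lost.

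RNA-binding and translation genes have many clusters and so many moves. Moved promoter clusters were 34 of 117 (29.1%, 21.6 to 37.8%) for translation factors, 29 of 115 (25.2%) for hnRNP genes, 19 of 105 (18.1%) for SR proteins and the spliceosome and 6 of 35 (17.1%) for nonsense-mediated decay. Among the 115 matched promoter clusters of hnRNP genes 9 regions were wider by at least 10 bp and 4 narrower, where over all genes 833 and 470 of 19782 were. Hnrnpd, which binds AU-rich RNA, had 3 that widened, from 16 to 41, 1 to 21 and 2 to 12 bp, and 1 that went from 18 to 1 bp. Eif5a, a factor for translating proline runs, went from 23 to 55 bp, and C7 likewise. Pabpc1, the poly(A)-binding protein, moved by 48 bp upstream and had another cluster widen from 26 to 48 bp, where C7 stayed at 26 bp. Single-base coding clusters were gained at Eif3a, Eif3e and Pcbp2, and a 2-bp coding cluster was lost at Snrnp200.

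Ribosomal protein genes, the list with the most genes and promoter clusters, lost the most clusters by number. Of 263 promoter clusters in E14, 4 were lost and none was gained in A1, and of 63 clusters inside the genes 2 were lost and none gained. Over all genes 103 of 19872 promoter clusters were lost and 93 gained, and 55 of 7305 clusters inside genes were lost and 122 gained. By share this list did not lose the most promoter clusters, since that of DNA methylation lost 1 of 34 and that of H2A.Z 1 of 32. The lost promoter clusters were 28 bp at Rpl8, 15 bp at Rps12, 14 bp at Rpl9 and 11 bp at Rpl28, and lay 49, 35, 36 and 50 bp from the nearest cluster that A1 kept. C7 had those of Rpl8, Rps12 and Rpl9. The lost clusters inside genes were 2 bp at Rpl32 and 2 bp at Rps16. All 79 genes of the list kept a promoter cluster in A1. Their dominant TSS moved in 67 of 259 matched clusters (25.9%, 20.9 to 31.5%), and Fau widened most, from 19 to 43 bp. These genes have many processed copies in the genome, so the assignment of their reads is uncertain.

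Genes of DNA replication and cell division had shares of moved promoters whose intervals include that of all genes. The dominant TSS moved in 6 of 49 promoter clusters of DNA replication genes (12.2%, 5.73 to 24.2%) and 11 of 59 of cell division genes (18.6%, 10.7 to 30.4%). Pcna, the sliding clamp, moved by 21 bp and Rpa1, which binds single-stranded DNA, by 34 bp. Inside the replication genes 3 clusters were gained, 2 at Rfc1 and 1 in an intron of Cdc6, and none was lost. Inside the cell division genes 3 were gained, at Mki67, Ncapd2 and Smc2, and 1 was lost at Cenpf. The replication list had 39 such clusters in A1 and the cell division list 125, and over all genes 122 of 7374 were gained. Heat shock proteins and chaperones had 20 of 90 moved (22.2%). Embryonic stem cell markers had 3 of 30 moved (10.0%, 3.46 to 25.6%), of which Dppa5a moved by 25 bp upstream. One of the 6 promoter clusters of Pou5f1 kept its base at 35506249 and its region went from 15 bp in E14 to 35 bp in A1 and C7. Esrrb lost an 8-bp intronic cluster that C7 kept.

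The study showed the start profiles of Wtap, Hnrnpk, Nap1l1 and Ptges3. Wtap, which directs methylation of adenosine in RNA, gained a single-base promoter cluster in A1 at 12994169 on chromosome 17, on an annotated start and 1559 bp from the nearest E14 cluster. The interquantile region of another Wtap cluster went from 20 bp in E14 to 30 bp in A1 and C7. At Hnrnpk the clusters were those of E14, and in 1 of 12 the dominant TSS moved, from 58394480 to 58394477, while C7 stayed at the E14 base. Nap1l1, a histone chaperone, kept all 10 clusters. One of its 5 promoter clusters kept the base 111473227 and widened from 10 bp to 34 bp in A1 and in C7. In 2 coding clusters the dominant TSS moved, from 111490134 to 111490114 and from 111492973 to 111492966, where C7 kept the E14 bases. Ptges3, a cochaperone of HSP90, kept its 5 clusters and their dominant TSSs in A1, while in C7 the promoter's dominant TSS was at 128059118 in place of 128058954.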

How the data were processed

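Nuclear RNA of mouse embryonic stem cells was profiled by CAGE-seq without PCR amplification. Per the labels and methods, the authors mapped reads to mm10 with STAR 2.4.2a, handled alignments with SAMtools 1.3 and bedtools (for which the labels and the methods give different versions), kept unique alignments, merged the libraries of each line, scaled them to a common power law and clustered the start sites with CAGEr. Positions are what was deposited: cluster start and end, dominant TSS, and blocks of the interquantile region (quantiles 0.1 to 0.9). Every score is 0, so no expression level was used. The lowest signal at which a cluster was called is not given in the sources used here. No column of sample values was left unmapped (0).

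Clusters were read, classed by the dominant TSS in GENCODE M21 (GRCm38, the assembly of mm10) and matched in Python 3.11.15 (NumPy 2.4.6, SciPy 1.17.1 for intervals), with figures from Matplotlib 3.10.9. The class order was promoter, exonic, intronic, intergenic, on the strand of the cluster. A cluster with several partners was paired with the one of largest overlap. The interquantile region was the widest inner block where a dominant TSS outside it had a block of its own. Sequence was read where GENCODE transcripts or RefSeq promoter windows covered it, and shares of bases were given only above 80% coverage. Matching was tested on simulated clusters, where 1000 of 1000 presences and 889 of 889 shifts were recovered.

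The members and gene lists were chosen with earlier results of these data known. Genes named are the 6 widest gained and lost clusters of each class, the 8 promoters of coding genes with the farthest moves and the largest width changes each way, the 8 genes with the largest net gain and loss of intragenic clusters (after Fblim1 the losses are ties at 1 and are not named), the knocked-out genes, those the study showed, and list members that changed. Alternatives were other promoter windows, coding transcripts only, standard chromosomes only, other overlap rules, wider clusters only, one-to-one pairs and other thresholds.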

Additional observations from a re-analysis of the deposited data

Results flagged for a closer look

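The balance of gained and lost clusters had opposite signs in the DKO clones for 2 classes. In introns A1 gained 21 more clusters than it lost, and C7 lost 21 more than it gained (a balance of -21). In intergenic sequence the balance was 75 in A1 and -26 in C7. Both clones were set against the same E14 track, and the difference between them was not tested, since each clone is 1 merged track.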

How the results depend on the processing

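No paired analysis was possible because the libraries of each line were merged into 1 track, and for the same reason no replicate could be left out. Narrow clusters decided the counts of gained and lost clusters. Among clusters whose interquantile region had 3 bp or more, 47 were gained (20 promoter, 3 exonic, 5 intronic and 19 intergenic) and 93 lost (53, 10, 12 and 18). With clusters wider than 1 bp only, an alternative chosen after seeing the data, 72 were gained (25, 8, 6 and 33) and 129 lost (64 promoter, 16 intronic and 24 intergenic, beside 25 exonic). Reciprocal overlap of 50% gave 159 promoter clusters gained and 156 lost, and a promoter window of 100 bp gave 45 exonic clusters lost. Standard chromosomes only, a slack of 20 bp, overlap of interquantile regions, strand ignored, coding transcripts only, a window of 1000 bp and leaving out chromosome 8 (chosen after seeing the data) kept every count of gained and lost clusters within 1.5 times.

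The share of moved dominant TSSs was 24.5% where that region had 3 bp or more, and 8.33% counting only moves of 10 bp or more. At that minimum width, 3.97% of regions were wider and 2.25% narrower. A change of at least 5 bp gave 7.44% wider and 4.10% narrower, a change of at least 20 bp gave 0.558% and 0.334%, and pairs with the same outline gave 1.77% narrower. Wider regions outnumbered narrower ones under all 9 alternatives, in every class. Of the gene lists, the moved share of SR proteins and the spliceosome was 9.23% and that of ribosomal proteins 20.8% with a window of 100 bp. The deposited tracks give no depth, so a cluster absent from a track may lie below the caller's minimum. The study lists mapped reads for each sample, and these were not used here.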
